A study of Esox lucius with 13 samples.

Results

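The eye library of a northern pike (Esox lucius) was compared with the libraries of the other 12 tissues that were taken from the same animal. The comparison covers the 20627 of 38696 transcripts (53.3%) that had 10 or more fragments in eye, and 1 of 13 libraries is from eye. All tissues came from a single wild-type juvenile male, with 1 library each. Beside eye these were brain, nose, testis, spleen, stomach, gut, gill, heart, muscle, liver, kidney and head kidney. The study's methods name hind gut where the labels have gut, and its annotation of gene models has pyloric caecum in place of stomach. The sources used here do not say which parts of the eye were taken. With 1 library per tissue there is no spread between animals or between libraries, so no test was possible and all values are those of these libraries alone. The fish is common to all libraries, and the dissection and the library cannot be told apart from the tissue.

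The vertebrate eye joins several tissues in 1 organ. Photoreceptors of the retina hold stacks of membrane discs filled with opsins, which start a cascade that closes ion channels when light is absorbed, and arrestins end the signal. The signal passes through ribbon synapses to bipolar cells and on to ganglion cells, the pigment epithelium behind the retina renews the retinal of the opsins, and the lens is built of long fibre cells joined by gap junctions. In bulk RNA of such an organ, fewer cells of a type and less RNA per cell cannot be told apart.

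Eye had 20128732 mapped fragments, against 17240414 in brain to 22300517 in liver among the other libraries. A fragment is a sequenced pair of reads, and FPKM is the number of fragments scaled to the length of the transcript and to the mapped fragments of the library. Each ratio is the share of fragments in eye over the share in the highest other tissue. Ratios were also taken with 3 other scalings of the libraries (median-of-ratios size factors, upper-quartile scaling and totals without the 100 most abundant transcripts), and their range is given for each called ratio that they moved by over 1.5 times and for others where named. The 95% intervals cover counting error only, since there is 1 library per tissue. Those of ratios are exact for a fixed pair of libraries, but the other tissue was picked from the same counts. The reads carry no molecular identifiers, so repeated copies of a molecule, if present, would make the intervals too narrow. A count of 10 fragments has an interval of 4.80 to 18.4, and a count of 100 has one of 81.4 to 122. Of all transcripts, 6937 had 1 to 9 fragments in eye and 11132 had 0, and they are not compared below.

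The named transcripts with the highest ratios of eye to the other tissues included genes of photoreceptors. Rhodopsin, the light-absorbing protein of rods, was the transcript with the second highest FPKM in the library, and the cone protein Arrestin-C also stood more than 1000-fold above every other tissue. A transcript was called higher in eye when its ratio to the highest other tissue was at least 5, with any tissue under 3 fragments set to 3. This held for 598 of the 20627 transcripts (2.90%) and 32 of these have a name, while 402 (1.95%) reached 10-fold. Of 8 transcripts at 1000-fold or more, 3 have a name. Among the 596 named transcripts with 10 or more fragments in eye, 32 were called and 85 were highest in eye, while 1652 of all 20627 (8.01%) were highest there. The counting interval of the ratio lay above 1 for 1306 of the 1652 and included 1 for the other 346. Below the threshold, the nearest transcript outside had a ratio of 4.98 and the nearest inside had 5.04.

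**Figure D1:**
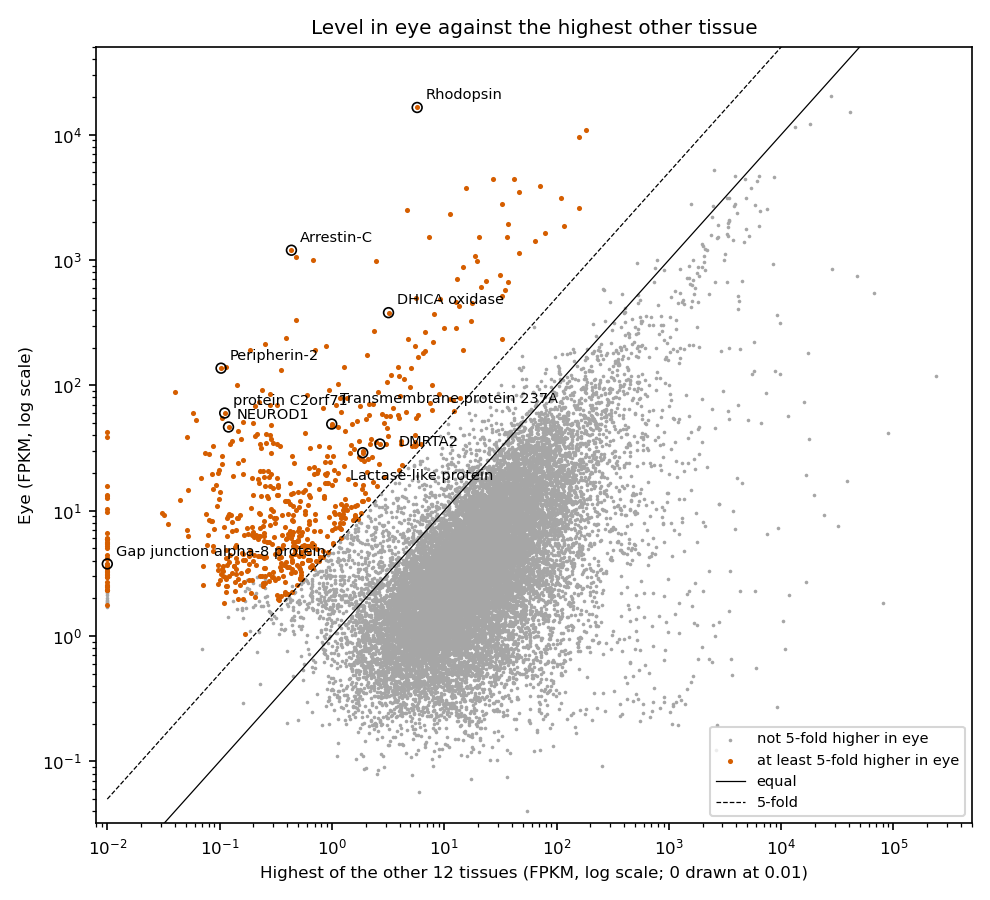
Each point is 1 of the 20627 transcripts, with its level in eye on the vertical axis and its level in the highest of the other 12 tissues on the horizontal axis, both in FPKM on log scales. The 598 transcripts called higher in eye (orange) lie above the dashed line at 5-fold, with Rhodopsin at 16459.5 FPKM in eye and 5.74 in gill at its top.

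Names could be read for 1157 of the 38696 transcripts from the part of the study's annotation used here, and the 566 unnamed transcripts of the 598 stay unnamed. Rhodopsin, Arrestin-C, 5,6-dihydroxyindole-2-carboxylic acid oxidase and Multiple PDZ domain protein were named by a pairing of fragment profiles that was added after the data were seen. Peripherin-2 comes from a looser pairing in which other transcripts have a similar profile, and its name is less sure. These 5 were chosen after their values were seen, and the other 27 follow the rule for named genes. The pairing of profiles also gave names below that were not called. Among them are peropsin, Protocadherin-10, Mucin-2, Lecithin retinol acyltransferase, Troponin I of slow skeletal muscle and the NMDA 2C transcript at 6.57 FPKM in eye.

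Rhodopsin had 544342 fragments in eye, 2.70% of the library, and 16459.5 FPKM (16416 to 16503). It had 180 fragments in gill, 142 in stomach, 131 in gut and 13 in brain, and 0 in the other 8 libraries. The ratio to gill was 2866 (2476 to 3335), the highest of the 598 as scaled here, and 1386 to 1949 with the other scalings, below Peripherin-2 with upper-quartile scaling. Arrestin-C, which binds activated cone opsins, had 41884 fragments and 1196 FPKM in eye (1184 to 1207). It had 15 fragments in stomach, 13 in gut, 12 in gill and 12 in brain, 2 in liver, 1 in testis and 0 in the other 6. The libraries with 10 or more fragments of either transcript outside eye were thus the same 4. The ratio of Arrestin-C to stomach was 2743 (1663 to 4902), whose interval overlaps that of Rhodopsin, and 1009 to 1419.9 with the other scalings.

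Other proteins of the outer segment and its cilium differed in how far they were detected elsewhere. Peripherin-2, a membrane protein of the disc rim, had 4193 fragments in eye and 137 FPKM (133 to 141), against 3 fragments in gill, 2 in brain, 1 in gut and 0 in the other 9 libraries. Its ratio to gill was 1324 (453 to 6425). Protein C2orf71, a photoreceptor protein of the connecting cilium, had 1855 fragments in eye, against 3 in nose and 1 each in gill, gut and stomach, and its ratio to nose was 543 (186 to 2637). Aryl-hydrocarbon-interacting protein-like 1, a chaperone of the photoreceptor phosphodiesterase, was detected in 10 of the other 12 libraries, but at 12 fragments or fewer. It had 1767 fragments and 37.2 FPKM in eye (35.5 to 39.0), 129 times its level in nose (73.9 to 251). Oxygen-regulated protein 1, a microtubule-associated protein of the photoreceptor axoneme, had 145 fragments in eye, 6 in brain and 0 in the other 11, a ratio of 20.7 (9.28 to 57.3). Serine/threonine-protein phosphatase with EF-hands 2, a relative of the Drosophila phosphatase that acts on rhodopsin, had 7.10 FPKM in eye (6.12 to 8.20) and 1.2 in testis. Its ratio of 5.91 has an interval that reaches below the threshold (4.0 to 9.0). With the other scalings the ratio was 670.5 to 841 for C2orf71, 165 to 200.2 for Aryl-hydrocarbon-interacting protein-like 1, 28.6 to 38.3 for Oxygen-regulated protein 1 and 6.27 to 10.3 for the phosphatase.

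The opsins outside the rod and cone classes were far less abundant and differed among themselves. Melanopsin-like, the opsin of light-sensitive ganglion cells in mammals, had 107 fragments in eye, 3 in testis and 0 elsewhere, a ratio of 34.0 (11.3 to 167). Opsin-5, a short-wavelength opsin, had 164 fragments in eye, 2 in kidney, 1 each in head kidney and testis and 0 in the other 9, a ratio of 80.5 (21.9 to 670.2). Both had 0 fragments in brain, and with the other scalings the ratios were 36.1 to 59.1 and 100 to 124. Visual pigment-like receptor peropsin, an opsin of the pigment epithelium, had 11.1 FPKM in eye (9.82 to 12.6) and 2.42 in testis, and its ratio of 4.60 (3.41 to 6.31) left it just under the threshold, which it passed with other scalings (4.89 to 8.01). Opsin-3, which is known from brain and many other tissues, had 2.23 FPKM in eye (1.68 to 2.91) and 2.34 in spleen, a ratio of 0.95 (0.64 to 1.42) at which the libraries do not differ beyond counting error, and 1.43 to 1.85 with the other scalings. In FPKM, Rhodopsin in eye was thus above each of these 4 opsins by a wide margin.

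In the list of phototransduction and the outer segment, 9 of 11 named transcripts were called and 10 were highest in eye. Over all 20627 transcripts, 2.90% were called and 8.01% were highest in eye. Rhodopsin, Arrestin-C and peropsin were named by the pairing added after the data were seen, and Peripherin-2 by the looser one. The list was chosen with earlier results of these data known, so its counts are descriptions only. The median log2 ratio of the list was 5.55, against -2.18 over all 20627 transcripts and -2.12 over the named ones. Opsin-3 was the member that was not highest in eye as scaled here.

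**Figure D2:**
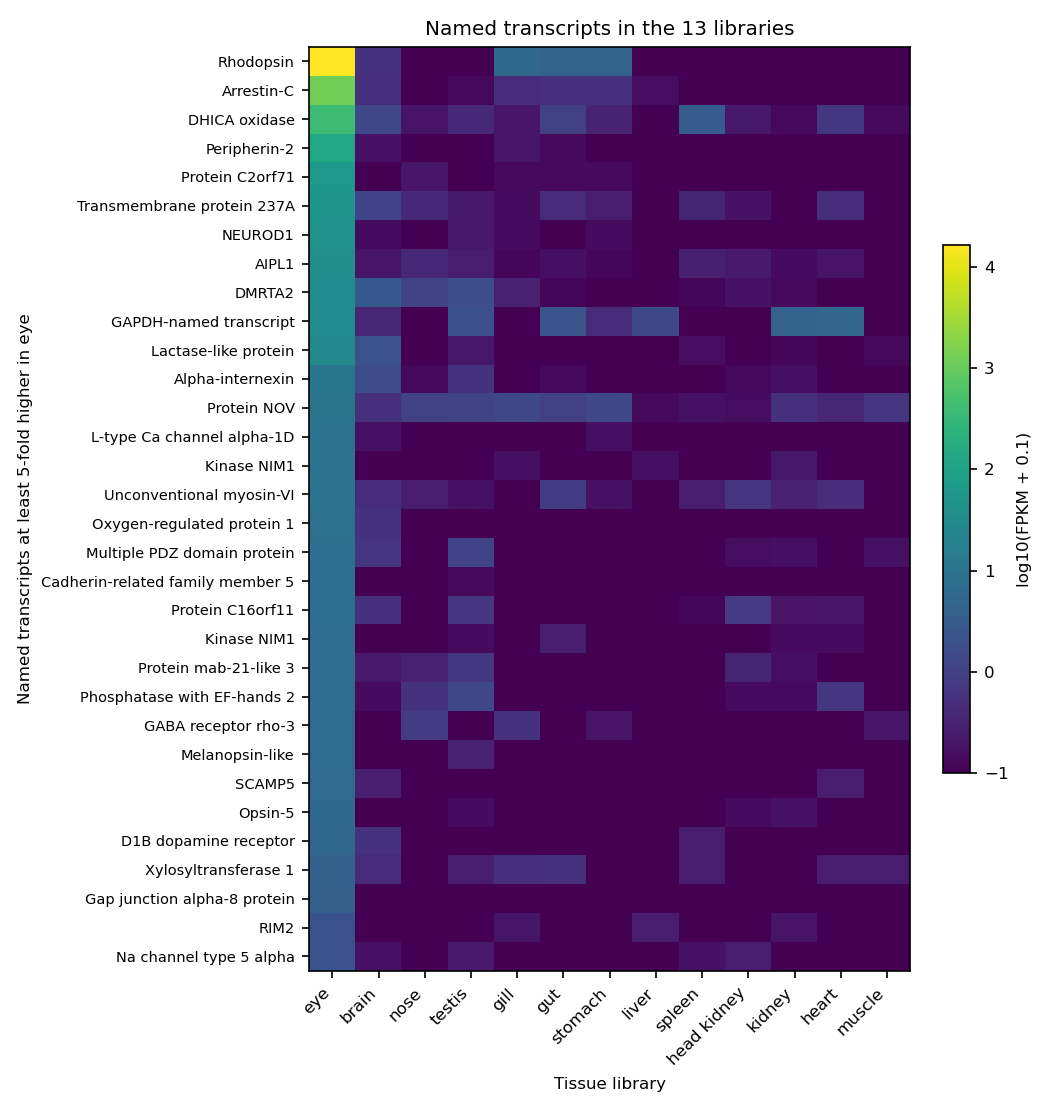
Rows are the 32 named transcripts called higher in eye, in order of their level there, columns are the 13 tissue libraries with eye at the left, and colour is log10(FPKM + 0.1). Outside eye most cells are at the lowest colour, and 27 of the 32 rows have 0 fragments in liver and 26 have 0 in muscle.

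Genes of the lens and of pigment were fewer among the names. Lactase-like protein, a glycosidase family member known from the mouse lens, had 1248 fragments and 29.0 FPKM in eye (27.5 to 30.7). It had 69 fragments in brain, 5 in testis, 2 in spleen and 1 each in kidney and muscle, and its ratio to brain was 15.5 (12.2 to 20), or 21.4 to 28.7 with the other scalings. Gap junction alpha-8 protein, a connexin of lens fibre cells, had 20 fragments in eye and 0 in all other libraries, which puts it at least 5.71-fold higher in eye with a floor of 3 fragments per library. This bound falls below 5 with each of the 3 other scalings (1.29 to 3.32) and with a floor of 10 fragments. Forkhead box protein E4, a lens transcription factor in frogs, had 13 fragments in eye and 1 in brain, a ratio of 11.1 (1.67 to 473; 15.4 to 20.6 with the other scalings), and was not called because of the floor. All 3 named members of the lens list were highest in eye, beside 8.01% over all transcripts. No crystallin could be paired with a transcript, and crystallins are not analysed here.

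The enzyme 5,6-dihydroxyindole-2-carboxylic acid oxidase, which works late in the synthesis of melanin, had 14518 fragments and 379.8 FPKM in eye (374 to 386). It was detected in 11 of the other 12 libraries, with 110 fragments in spleen, 38 in brain, 31 in gut, 22 in heart, 11 in testis and under 10 in the rest. Its level in eye was 119 times that in spleen (98.7 to 145), or 179 to 231 times with the other scalings. Tetraspanin-10, a membrane protein of pigment cells, had 4.45 FPKM in eye (3.53 to 5.53) and 0.92 in spleen, a ratio of 4.81 (2.75 to 9.0) that was 7.22 to 9.34, above the threshold, with the other scalings. Spleen was thus the next tissue of both. Retinol dehydrogenase 14, an enzyme of retinoid metabolism, was lower in eye than in testis, with 2.12 FPKM in eye (1.60 to 2.77) and 6.98 in testis. Of the 6 named members of this list, All-trans-retinol 13,14-reductase and Lecithin retinol acyltransferase had 8 and 6 fragments in eye, below the minimum. All 6 summed to 399 FPKM in eye, of which the oxidase gave 379.8, and to 37.9 in spleen, the next tissue. Most of the sum in spleen came from the reductase and the acyltransferase together, not from the oxidase or Tetraspanin-10. The other 4, peropsin among them, had 10 or more fragments in eye, and of these 3 were highest there and 1 was called. Over all transcripts, 8.01% were highest in eye and 2.90% were called.

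The list of transcription factors was a mixed one, and its members ranged widely. Beside factors of eye and neural development it held others, such as Hox and T-box proteins. Neurogenic differentiation factor 1, which acts in photoreceptor and amacrine cell development, had 1222 fragments in eye, 3 in testis, 1 each in brain, gill and stomach and 0 in the other 8 libraries. The ratio to testis was 388 (133 to 1885), or 412 to 621 with the other scalings. Doublesex- and mab-3-related transcription factor A2, a factor of neural development, had 1825 fragments in eye, 123 in brain, 83 in testis, 50 in nose and 10 in gill, with 4 or fewer elsewhere. Its 34.0 FPKM in eye (32.5 to 35.6) were 12.7 times those in brain (10.6 to 15.4), or 17.6 to 22.3 times with the other scalings. Protein mab-21-like 3 had 126 fragments in eye and 10 in testis, a ratio of 12 (6.32 to 25.6), or 12.8 to 20.9 with the other scalings.

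Other factors were highest in eye without being called. Forkhead box protein G1, a factor of the forebrain and the nasal retina, had 6.89 FPKM in eye (5.83 to 8.09) and 2.0 in muscle, a ratio of 3.45 (2.39 to 5.09). With the other scalings its ratio to the highest other tissue was 0.946 to 2.0, so that it was not highest in eye with upper-quartile scaling. Homeobox protein Meis1 had 5.37 FPKM in eye (3.82 to 7.34) and 2.41 in brain, a ratio of 2.23 (1.2 to 4.35), and a pair of transcripts named Homeobox protein Meis2 had ratios of 2.18 and 1.91 to brain. With the other scalings these were 1.28 to 1.80 for Meis1, 3.02 to 4.03 and 2.65 to 3.54. The Meis proteins are cofactors that act in the early eye. Paired mesoderm homeobox protein 1, a factor of mesenchyme, was lower in eye than in nose at 5.41 FPKM (4.73 to 6.16), against 27.0 in nose. In this mixed list, 18 of 39 named transcripts had 10 or more fragments in eye, 9 had 1 to 9 and 12 had 0. Its counts and sums are thus not those of eye or neural factors alone. Of the 18, 10 were highest there, 3 were called and 0 were called lower, but passing the minimum in eye favours eye. Over all 20627 transcripts, 8.01% were highest in eye, 2.90% were called and 0.228% were called lower. All 39 summed to 143 FPKM in eye and 96.3 in gill, the next tissue. Neurogenic differentiation factor 1 gave 46.5 FPKM of the sum in eye and Doublesex- and mab-3-related transcription factor A2 gave 34.0.

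Genes of neurons and synapses were summed higher in brain than in eye. The 43 named transcripts of this list summed to 85.9 FPKM in eye and 144 in brain, and 18 of them had 1 to 9 fragments in eye and 3 had 0. Of the 22 with 10 or more, 12 were highest in eye and 9 in brain, and 5 were called, but passing that minimum in eye favours eye. Over all transcripts, 8.01% were highest in eye and 2.90% were called. Voltage-dependent L-type calcium channel subunit alpha-1D, a channel of ribbon synapses, had 148 fragments in eye and 1 each in brain and stomach, a ratio of 127 (22.4 to 5040.3), or 53.5 to 75.3 with the other scalings. A further transcript of that name had 12 fragments in eye and 0 elsewhere, and the pair may be pieces of 1 gene. Transcripts named for the L-type subunit alpha-1F had 5 and 9 fragments in eye, and Metabotropic glutamate receptor 6 had 7, all below the minimum. D1B dopamine receptor had 162 fragments in eye, 11 in brain, 4 in spleen and 0 elsewhere, a ratio of 12.6 (6.87 to 25.8), or 17.5 to 23.3 with the other scalings. Further transcripts named D1B dopamine receptor had 6 and 7 fragments in eye, below the minimum. Gamma-aminobutyric acid receptor subunit rho-3, a chloride channel of bipolar cells, had 79 fragments in eye, 7 in nose, 5 in gill, 1 each in muscle and stomach and 0 in brain, a ratio of 9.92 (4.59 to 25.5), or 12.6 to 15.3 with the other scalings. Its relative subunit rho-1 had 1.69 FPKM in eye (1.15 to 2.38) and 2.47 in gut, a ratio of 0.68 whose interval includes 1 (0.42 to 1.10). As scaled here, rho-3 thus stood above the highest other tissue, while rho-1 did not differ from it beyond counting error.

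Alpha-internexin, a neuronal intermediate filament, had 10.7 FPKM in eye (9.63 to 11.8), 7.21 times its level in brain (5.30 to 10), or 9.97 to 13.3 times with the other scalings. Regulating synaptic membrane exocytosis protein 2, an active zone protein, had 22 fragments in eye, 2 in liver and 1 each in gill and kidney, a ratio of 12.2 (3.0 to 107). That ratio was 3.10 with median-of-ratios size factors, 2.12 with upper-quartile scaling and 1.88 with a floor of 10 fragments. Secretory carrier-associated membrane protein 5, of synaptic vesicles, had 42 fragments in eye and 1 each in brain and heart, a ratio of 36.0 (6.11 to 1454) that was 3.60 with a floor of 10 fragments. In contrast, the glutamate receptor subunit NMDA 2C had 6.57 FPKM in eye (5.98 to 7.21) and 31.9 in brain, a ratio of 0.21 (0.19 to 0.23). Further transcripts named NMDA 2C had 79 and 1 fragments in eye. Glycine receptor subunit beta, part of an inhibitory chloride channel, had 1.24 FPKM in eye (0.83 to 1.79) and 7.87 in brain. Metabotropic glutamate receptor 8, a presynaptic receptor, had 1.70 FPKM in eye (1.10 to 2.51) and 6.36 in brain.

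**Figure D3:**
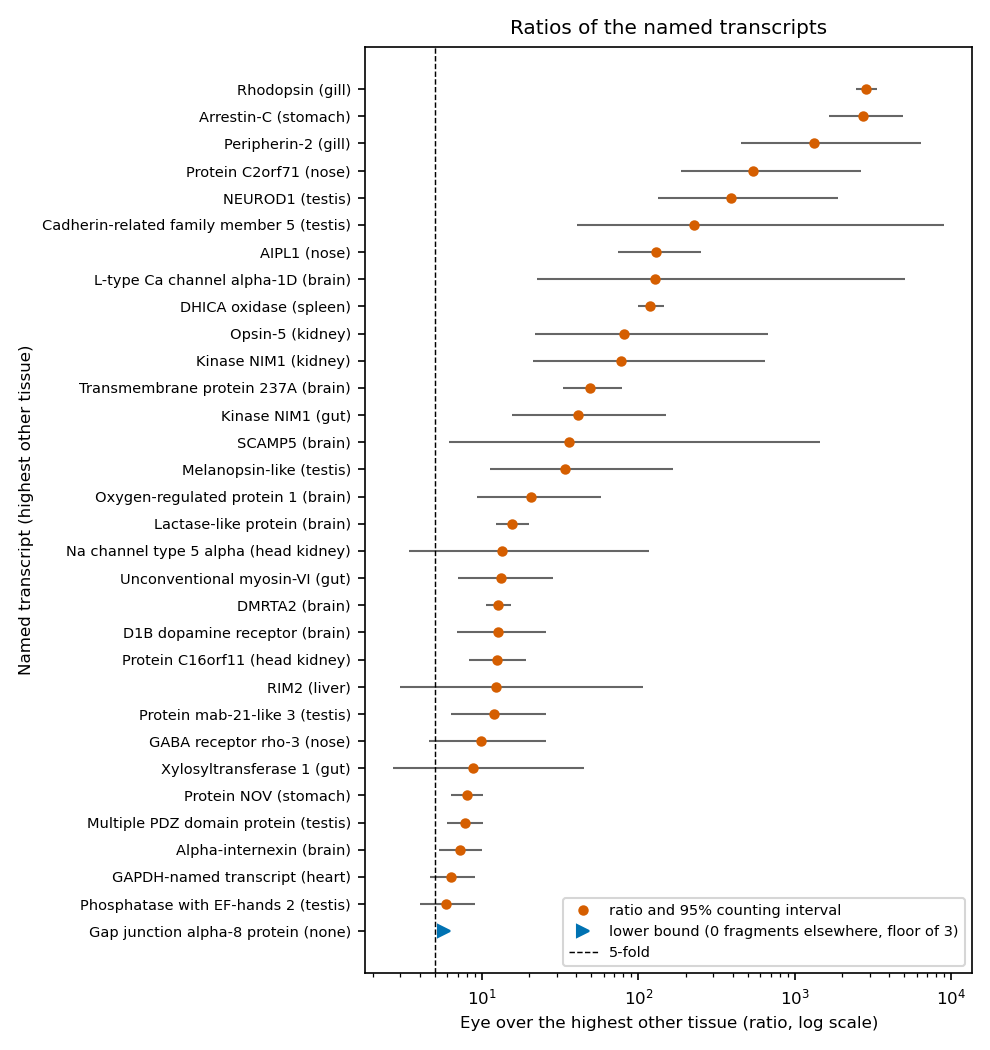
Points are the ratios of the 32 named transcripts, eye over the highest other tissue (given in brackets), on a log scale with 95% counting intervals, and the arrowhead is the lower bound of Gap junction alpha-8 protein. The interval lies wholly above the dashed line at 5-fold for 25 of the 32.

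The remaining called names belong to cilia, the actin cytoskeleton, adhesion and enzymes. Transmembrane protein 237A, of the ciliary transition zone, had 1324 fragments in eye and 23 in brain, a ratio of 49.3 (32.7 to 78.1), or 68.2 to 91.2 with the other scalings. It was the only member of the cilium list with 10 or more fragments in eye, since the other 22 named members, most of them axonemal dyneins of motile cilia, had 0 to 8 there. Unconventional myosin-VI, an actin motor, had 142 fragments in eye and 10 in gut, a ratio of 13.3 (7.03 to 28.4). Cadherin-related family member 5, an adhesion protein of intestinal microvilli in mammals, had 239 fragments in eye, 1 in testis and 0 in the other 11 libraries including gut, a ratio of 228 (40.5 to 9033), or 242 to 396 with the other scalings. It was the 1 called transcript among 13 of the cadherin and adhesion list with 10 or more fragments, of which 6 were highest in eye, beside 2.90% called and 8.01% highest over all transcripts, while 11 of the 30 named members had 1 to 9 fragments and 6 had 0. All 30 summed to 62.6 FPKM in eye and 97.5 in brain.

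Multiple PDZ domain protein, a scaffold of cell junctions, had 8.02 FPKM in eye (7.34 to 8.75) and 1.04 in testis, a ratio of 7.74 (5.95 to 10.2), or 8.22 to 13.5 with the other scalings. Serine/threonine-protein kinase NIM1, a relative of the energy-sensing AMP kinase, named a pair of called transcripts with ratios of 77.5 (21.1 to 646) and 40.8 (15.6 to 151), which may be pieces of 1 gene. The first of these was 30.5 to 92.0 with the other scalings. Protein NOV, a secreted matrix protein, had 10.2 FPKM in eye (9.42 to 11) and 1.27 in stomach, a ratio of 8.0 (6.33 to 10.2). It had fragments in all 13 libraries, and its ratio was 2.94 to 4.14 with the other scalings, below the threshold. A short transcript of 436 bases named Glyceraldehyde-3-phosphate dehydrogenase, an enzyme of glycolysis, had 33.0 FPKM in eye (29.3 to 37.1), 6.38 times its level in heart (4.62 to 9.0). With upper-quartile scaling that ratio was 4.66.

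Protein C16orf11 had 345 fragments in eye, 26 in head kidney, 24 in testis and 16 in brain, a ratio to head kidney of 12.4 (8.30 to 19.2). Sodium channel protein type 5 subunit alpha, named for the channel of mammalian heart, had 29 fragments in eye, 2 in head kidney and 0 in heart, a ratio of 13.5 (3.42 to 117). Xylosyltransferase 1, which starts the sugar chains of proteoglycans, had 28 fragments in eye and 3 in gut, a ratio of 8.75 (2.70 to 45). Both fell under the threshold with a floor of 10 fragments, and counts of this size give wide intervals.

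**Figure D4:**
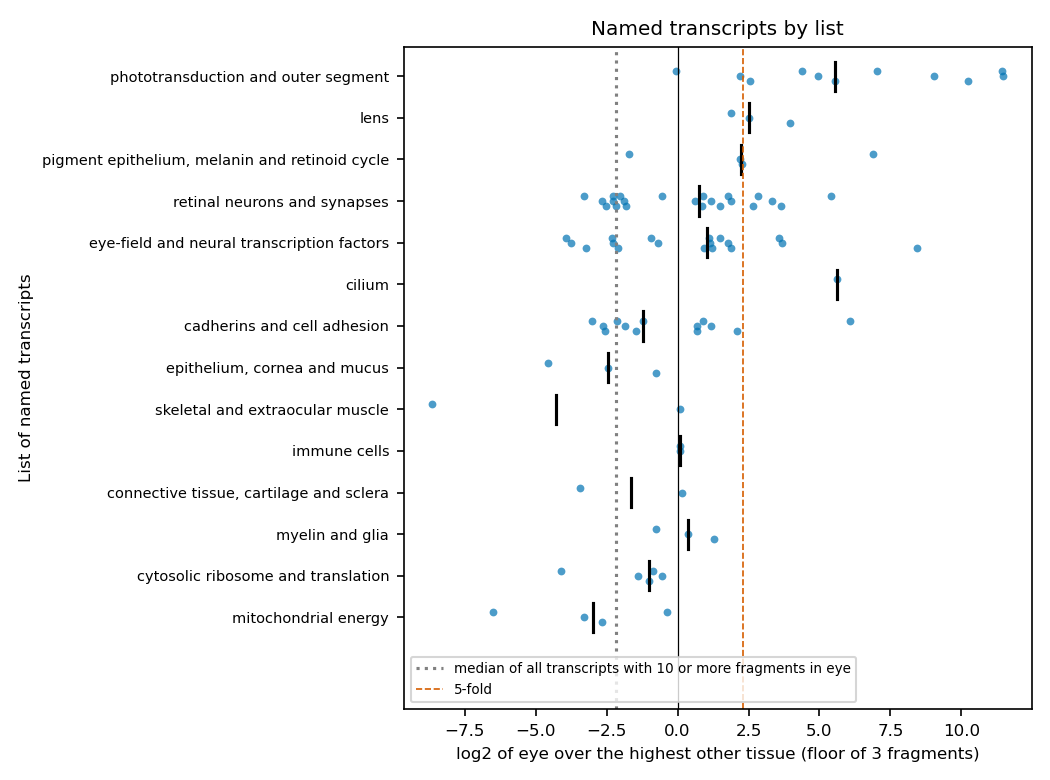
Each point is a named transcript with 10 or more fragments in eye, placed by the log2 ratio of eye over the highest other tissue (floor of 3 fragments) and grouped by list, and black bars are medians. Members under 10 fragments in eye are not drawn. The highest points are Rhodopsin and Arrestin-C of the phototransduction list, and the dotted line marks -2.18 for all 20627 transcripts.

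Some markers of other cell types that the library could hold were detected in eye, and others were at 0 there. For some of those detected, eye was the highest library as scaled here, but each interval given below for these includes 1. The 6 named muscle transcripts summed to 3.59 FPKM in eye, against 0.00400 in testis to 194 in heart over the other tissues. Troponin I of slow skeletal muscle had 19 fragments in eye and 7160 in heart, and 1 of the transcripts named Myosin-7 was at 0 in eye. Myosin light chain kinase family member 4 was at 1.72 FPKM in eye and 1.61 in muscle, a ratio of 1.07 (0.68 to 1.69), or 0.292 to 0.618 with the other scalings. The 6 names of epithelium and mucus summed to 14.5 FPKM in eye, against 0.0880 in liver to 61.4 in gill, with Mucin-2, a gel-forming mucin, at 10.7 in eye and 58.0 in gill. The 9 immune names summed to 8.57 FPKM in eye, against 0.666 in liver to 52.5 in head kidney. Interleukin-17D gave 7.41 of the sum in eye. Of the 9, 4 had 0 fragments in eye, immunoglobulin transcripts among them, and 3 had 1 to 9. The 2 with 10 or more fragments in eye, Interleukin-17D and C-C chemokine receptor type 6, each had a ratio of 1.07 whose interval includes 1, and that of Interleukin-17D was 0.293 to 0.620 with the other scalings. The 9 names of connective tissue summed to 2.47 FPKM in eye, against 0 in liver to 10.7 in nose. Of these, 5 had 0 fragments in eye, all of them collagens, and 2 had 1 to 9. The 3 names of myelin and glia summed to 10.9 FPKM in eye, against 0.0240 in liver to 10.4 in brain, so that eye had the highest sum. Of these, the cytoskeletal myelin protein Ermin had a ratio to brain of 1.30 (0.91 to 1.87) and Probable G-protein coupled receptor 37 one of 2.43 (0.91 to 7.52), while Claudin-11 was lower in eye than in brain at 0.59 (0.46 to 0.75). With the other scalings Ermin was 1.80 to 2.41 and the receptor 3.36 to 4.49. Claudin-11 is in the lists of epithelium and of myelin and in both of their sums. Members with 10 or more fragments in eye were 2 each for muscle, immune cells and connective tissue, and 3 each for epithelium and for myelin. Of these, 0 were called, but so few members cannot tell 0 from the 2.90% called over all transcripts. No transcript of haemoglobin was named. The part of these cells in the results was not tested.

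The 598 called transcripts together held 2620590 fragments, 13% of the eye library. Their median was 9.66 FPKM and 879 bases, against 3.31 FPKM and 2174 bases over all 20627 transcripts, which include them. A 5-fold ratio over a floor of 3 fragments needs more than 10 in eye, so the higher level follows in part from the rule. The difference in length was present in other libraries too, where the called transcripts of brain had a median of 834 bases against 1852, and those of testis 1521 against 2417. Of the 598, 24 had 1000 FPKM or more in eye, 74 had 100 or more, and 303 had 1 to 10. The median ratio was 16.8, and 41 transcripts had 0 fragments in all 12 other libraries. The 24 most abundant held 9.27% of all eye fragments, and only Rhodopsin and Arrestin-C among them have a name.

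Brain was the next tissue for most of the abundant transcripts. Of the 24 with 1000 FPKM or more, 19 had brain as the highest other tissue, and the ratio of eye to brain had a median of 67.3 and a lowest value of 16.2. The most abundant unnamed transcript of these had 139899 fragments in eye and 2000 in brain, a ratio of 59.9 (57.3 to 62.6). The next had 140215 in eye and 1999 in brain, a ratio of 60.1 (57.5 to 62.8). Summed over the 24 transcripts there were 1866396 fragments in eye, against 18676 in brain, 833 in stomach, 692 in gill, 555 in gut, 385 in testis and 18 to 110 in the other 7 libraries. Rhodopsin, with 13 fragments in brain, did not follow the pattern of the unnamed pair. Among all 598 transcripts, brain was the next tissue for 270 (48.5% of those with a fragment elsewhere), testis for 76 (13.6%) and nose for 59 (10.6%). Of the 1652 transcripts highest in eye, called or not, brain was next for 763, nose for 184 and testis for 171. The 763 also hold transcripts with 0 fragments elsewhere. Brain as the next tissue was thus not particular to the called transcripts. The 598 took 0.208% of the fragments of brain, 0.0443% of those of testis and 0.00261% of those of liver, the lowest share.

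**Figure D5:**
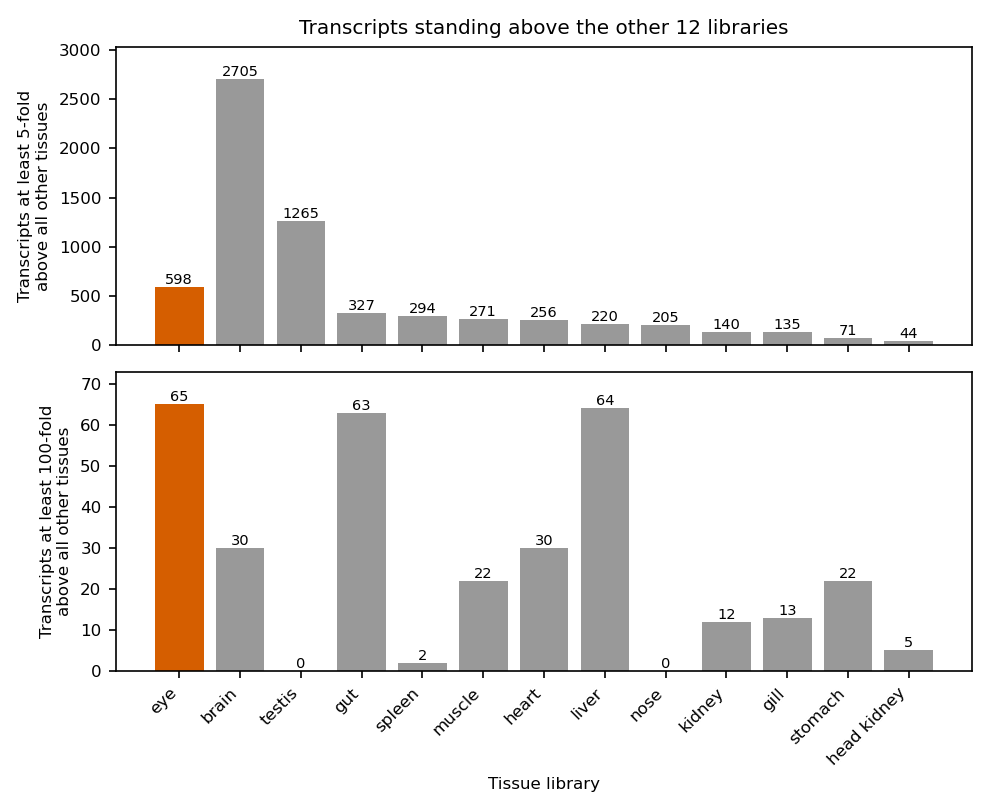
Bars are the transcripts that stood at least 5-fold (upper panel) or at least 100-fold (lower panel) above all other tissues, for eye at the left (orange) and the other 12 libraries. Eye has 598 at 5-fold, fewer than brain and testis, and 65 at 100-fold, the highest of the 13 but close to liver with 64 and gut with 63.

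The same rule was applied to each library in turn to place eye among the tissues. It gave 598 transcripts in eye, 2705 in brain (11.2% of those with 10 or more fragments there), 1265 in testis (7.62%) and 205 in nose (1.04%), and eye was the third of the 13. At 100-fold there were 65 in eye, 64 in liver, 63 in gut, 30 in brain and 0 in both testis and nose. The count in eye depended on brain more than on any other tissue, since without the brain library it was 1562. Over the 31051 transcripts at 1 FPKM or more in some tissue, the Spearman rho with eye was 0.677 for gill, 0.658 for muscle, 0.627 for nose and 0.626 for brain, down to 0.551 for testis. These are descriptions across transcripts, which share libraries and depth.

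Of the 20627 transcripts, 370 (1.79%) were lower in eye than in every other tissue, or 669 to 1290 with the 3 other scalings. Transcripts under 10 fragments in eye are left out here, though they could be lower still. At least 2-fold below the lowest other tissue were 47 of the 20627 (0.228%), with a median of 2.39 FPKM, and 0 of them have a name. The lowest had 68 fragments and 5.55 FPKM in eye (4.31 to 7.03), against 51.4 FPKM in testis and 216 in heart, a ratio to testis of 0.11 (0.08 to 0.14). The next had 13.3 FPKM in eye (11.2 to 15.7), against 68.9 in liver and 491 in heart. The count of 47 rests on how libraries are scaled. It was 130 with median-of-ratios size factors, beside 511 transcripts called higher, and 163 with upper-quartile scaling, beside 440 higher. Leaving out liver gave 81 and leaving out muscle gave 75. By the same rule in other libraries the count was 0 in gill and in kidney, 30 in brain and 1225 in liver.

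Among the named transcripts, the lowest relative to the lowest other tissue included general enzymes and a ribosomal protein. Hypoxanthine-guanine phosphoribosyltransferase, which salvages purines, had 8.78 FPKM in eye (8.01 to 9.61), against 13.8 in testis as the lowest other tissue and 118 in spleen as the highest. The ratio to testis was 0.63. The ribosomal protein L22 of the 60S subunit had 24.2 FPKM in eye (21.3 to 27.3), against 34.3 in testis and 414 in head kidney. It does not stand for its list. The 5 named transcripts of cytosolic ribosome and translation summed to 6630 FPKM in eye, against 2029 in brain to 11105 in stomach. Hemopexin, a haem-binding plasma protein, had 19 fragments in eye and 225108 in liver, and its ratio to nose, the lowest other tissue, was 0.70 with an interval that includes 1 (0.36 to 1.32). Cytochrome c oxidase subunit 5B, of the mitochondrial respiratory chain, was not the lowest in eye, with 5.44 FPKM in eye (4.55 to 6.46), against 3.25 in testis and 491 in heart. The 4 named transcripts of mitochondrial energy summed to 327 FPKM in eye, against 55.8 in head kidney to 771 in heart. Aspartate aminotransferase, named by the pairing of profiles, gave 318 of the sum in eye. In both lists 0 members were called lower.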

How the data were processed

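RNA-seq of 13 tissues of 1 fish was analysed, with 1 library per tissue. The authors trimmed paired reads with Trimmomatic, assembled all tissues with Trinity and reduced the assembly to 38696 transcripts. They deposited for each transcript and library the raw count of mapped fragments and its FPKM. The sources used here do not name the program for mapping and counting. Totals ran to 20128732 fragments in eye, against 17240414 to 22300517 in the other libraries.

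Ratios were taken from counts per library total, with exact conditional binomial intervals, and levels have exact Poisson intervals, both at 95%. Transcripts needed 10 fragments in eye, and 3 fragments was the floor for other tissues. No statistical test between tissues was made. The code for ratios, intervals and calls was checked on simulated counts with known folds. For the intervals, the other tissue in that check was fixed in advance.

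Names came from annotation rows with the same 13 counts and FPKM (817) and from gene models with at least 1000 fragments whose counts lay within 1 fragment or 0.1% of a transcript's, or 100 to 999 fragments and equal counts, with length within 20% (105). Pairing by profile, added after the data were seen, needed 500 fragments, a G-test p of at least 0.05 for 1 transcript and under 0.01 for all others within a factor of 2 in fragments and length (234 names). It gave the same transcript for 91 of 91 models also paired by the stricter rule. That follows from how the rules are built, so it is no check of the other names. Only the names were used from these tables, of which 1999 rows each were at hand. Named genes are the 30 called transcripts with the highest FPKM, up to 6 of each list and the 5 lowest relative to the lowest other tissue, where such exist. Further genes were named after their values were seen. Members and lists were chosen with earlier results of these data known, and list patterns were trimmed after names were read. Genome coordinates and sequences were not used here. Alternatives were other scalings, thresholds, floors, pseudocounts, thinning in 10 draws and each tissue left out. Computations used scipy 1.17.1, pandas 2.3.3 and numpy 2.4.6 in Python 3.11.15, with matplotlib 3.10.9 for plots.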

Additional observations from a re-analysis of the deposited data

How the results depend on the processing

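No paired analysis was possible because each tissue has 1 library and no result comes from a test. The count of 598 transcripts at least 5-fold higher in eye was 1049 at 2-fold, 390 with a minimum of 100 fragments in eye and 381 on log2(FPKM + 1). The other settings gave 402 to 645, and thinning to the smallest library gave 596. With 1 other tissue left out the count was 601 to 1562, the highest value without brain, and in all cases the 598 were included. Leaving out a tissue can only keep or raise this count and the counts below, so this is no check of them. Of the 598, 450 remained with median-of-ratios size factors, 390 with upper-quartile scaling, 518 with totals without the 100 most abundant transcripts and 562 with TPM. These scalings moved the median log2 ratio of all transcripts, -2.18 as reported, to values of -2.33 to -1.80. The count of transcripts highest in eye, 1652, was 1306 to 2144 with other settings and 1666 to 3887 with 1 tissue left out, the highest without brain. The count at least 2-fold lower in eye, 47, was 130 with median-of-ratios size factors and 163 with upper-quartile scaling. It was 99 without the 100 most abundant transcripts, and 47 to 81 with 1 tissue left out. The causes were not tested. Of 700 ratios of 140 named transcripts under other scalings and floors, 221 lay outside the counting interval. The 3 other scalings moved 24 of the 32 called named ratios by over 1.5 times, and of the 32, 20 were higher with all 3, 9 lower with all 3 and 3 in both directions. Of the 108 of these 140 that were not called, which were those of the naming rule or closest to equal or higher in eye, 37 changed side of 1. Of the 32 called named transcripts, 4 fell below 5 with another scaling and 5 with a floor of 10 fragments, and 0 fell below 1. Equal counts paired 85 gene models with transcripts and a tolerance of 2% or 5 fragments paired 113, against 110 as used. Under 30 fragments in eye, as in 66 of the 598, the intervals of ratios are wide.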

Other observations

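Actin-bundling proteins known from photoreceptors and hair cells were also highest in eye, though not called. They were chosen after their values were seen. Fascin-2, a bundling protein of photoreceptors, had 1041 fragments and 30.1 FPKM in eye (28.3 to 32.0), against 517 fragments and 15.7 FPKM in testis, a ratio of 1.92 (1.73 to 2.14), and only 3 fragments in brain. Espin, a bundling protein of hair cell bundles, had 6.75 FPKM in eye (5.53 to 8.17) and 1.40 in testis, a ratio of 4.81 (2.99 to 8.09), with 2 fragments in brain. Testis was thus the next tissue of both. WD repeat-containing protein 31 had 18.9 FPKM in eye (17.6 to 20.2) and 7.51 in testis, a ratio of 2.51 (2.20 to 2.88). Protocadherin-10, a neuronal adhesion protein, had 12.4 FPKM in eye (11.5 to 13.3) and 6.62 in brain, a ratio of 1.87 (1.64 to 2.13). With the 3 other scalings the ratio was 2.04 to 3.34 for Fascin-2, 5.11 to 8.37 for Espin, which then passed the 5-fold threshold, 2.67 to 4.37 for WD repeat-containing protein 31 and 2.59 to 3.46 for Protocadherin-10.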
